A study of Mus musculus with 21 samples.

Results

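The cathepsins and legumain are proteases of the lysosome, and 10 of their genes were followed here in microglia, the resident macrophages of the brain: Ctsa, Ctsb, Ctsc, Ctsd, Ctsf, Ctsh, Ctsl, Ctss, Ctsz and Lgmn. The genes were chosen by name, and 10 of 10 were found in both expression tables of the study, which together list 18718 genes. The genotype table compares uninjected females: 7 wild-type libraries of the C57BL/6 strain, numbered 1 to 4 and 6 to 8, and 4 libraries of ApoE knockout mice, strain B6.129P2-Apoetm1Unc/J. These carry a targeted, germ-line disruption of the gene for apolipoprotein E (ApoE), a lipid carrier, in every cell type. The injection table compares males of the same knockout strain, labelled as given an injection of phosphate-buffered saline (PBS, 5 libraries) or of recombinant APOE protein (rAPOE, 5 libraries), so the Apoe gene is disrupted in both of its groups. All mice were 12 to 18 weeks old, and the injected brains were collected 16 h after an injection into the left hemisphere. The labels name neither the hemisphere behind an injected library nor the mouse behind any library. The spread that p-values rest on is therefore that between libraries, some of which may be technical.

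Cathepsins are made as inactive precursors, sorted into lysosomes largely by mannose 6-phosphate receptors, and activated there as the compartment acidifies. Legumain, an endopeptidase that cuts after asparagine, converts several cathepsin precursors and single-chain forms into mature enzymes. In microglia these enzymes degrade phagocytosed protein and lipoprotein, process antigen and the invariant chain of MHC class II, and trim endosomal Toll-like receptors, while cystatins hold their activity in check outside the lysosome.

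Levels are normalised counts, the number of 3′ end tags of a gene divided by a single factor for its library. A transcript gives a tag at its 3′ end whatever its length, so levels of different genes are compared within a table without dividing by length. The tables were normalised apart and are not compared in level. Libraries held 2016972 to 3054976 reads in wild type, 4247865 to 4969287 in knockout, 704225 to 1347501 after PBS and 857059 to 1119059 after rAPOE. Apoe itself stood at 13195 to 17163 in wild-type libraries 1 to 7, at 1011 in wild-type library 8 and at 10.2, 0, 0 and 23.1 in knockout libraries 1 to 4. It was at 0, 0, 0, 1.3 and 1.3 in PBS libraries 1 to 5 and at 0, 0, 0, 8.5 and 0.8 in rAPOE libraries 1 to 5. Wild-type library 8 differed from the rest of its group: the 10 genes took 1.21% of its reads against 2.48% to 2.99%, its Xist level was 3291 against 1127 to 1279, and it held 0 Y-linked reads where the others, labelled female, held 11 to 36. Knockout libraries held 0 Y-linked reads and Xist at 1980 to 3292. PBS library 5 and rAPOE library 5, labelled male, held Xist at 979 and 718 and 0 Y-linked reads. The numbers of genes detected also separated the genotype groups, 13592 to 15248 in wild type against 8117 to 10479 in the knockout, as did the share of reads from mitochondrial ribosomal RNA, 1.36% to 4.67% against 0.647% to 0.886%, and their part in the results was not tested. Calls of the genes named below that change without wild-type library 8, or without both injected libraries numbered 5, are given in both forms.

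Microglial markers were present in all 4 groups, with 0 of 12 at 0 throughout a group. Their summed level was 55149 to 58901 in wild-type libraries 1 to 7, 75645 in wild-type library 8 and 76344 to 90549 in all knockout libraries. Choroid plexus and ependyma markers summed to 57606 to 83800 in wild-type libraries 1 to 7 and 23902 in library 8, against 446 to 887 in the knockout, where Folr1, Sostdc1 and Calml4 were at 0. Monocyte markers summed to 1481 to 1695 in wild-type libraries 1 to 7, to 99.3 in library 8 and to 0 to 207 in the knockout, where S100a4, Plac8, Vcan, F10 and Treml4 were at 0. Neuron markers summed to 638 to 870 in wild-type libraries 1 to 7, 43.3 in library 8 and 0 to 60.5 in the knockout. Border macrophage markers summed to 653 to 782, 267 and 105 to 301 in the same order. Astrocyte markers summed to 2018 to 2238, 1269 and 540 to 1008. Oligodendrocyte markers summed to 549 to 632, 190 and 92.5 to 282, and endothelium markers to 361 to 461, 231 and 165 to 329. Neutrophil markers did not follow: they summed to 2049 to 2709 in wild-type libraries 1 to 7, 179 in library 8 and 1575 to 6196 in the knockout, and 0 of 6 tested passed in either direction by limma (median 0.97), with 1 higher at an unadjusted p under 0.05, while edgeR called 0 and DESeq2 1 higher. Wild-type libraries 1 to 7 thus held choroid plexus, monocyte and neuron RNA that the knockout libraries nearly lacked, and library 8 was low in the last 2 of these. Border macrophage, astrocyte, oligodendrocyte and endothelium sums were also higher in wild-type libraries 1 to 7 than in the knockout. The part of such RNA in the differences of the 10 genes was not tested. In such bulk samples fewer cells of a type and less RNA per cell cannot be told apart.

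In wild-type libraries the order of the mean levels was Ctsd, Ctss, Ctsb, Ctsz, Lgmn, Ctsa, Ctsl, Ctsh, Ctsc and Ctsf, from 33288 for Ctsd to 295 for Ctsf. Ctsd, the main aspartic protease of the lysosome, and Ctss, a cysteine protease that trims the invariant chain and stays active at neutral pH, made up most of the transcripts of the set. With all libraries 2 of the 9 steps of this order had ranges that did not overlap, that from Ctss to Ctsb and that from Ctsc to Ctsf. Without library 8 the order was the same and 7 of 9 steps did not overlap, all but those from Ctsz to Lgmn and from Lgmn to Ctsa. In the knockout the order was Ctsd, Ctss, Lgmn, Ctsb, Ctsl, Ctsz, Ctsa, Ctsh, Ctsc and Ctsf, so Lgmn moved from the fifth place to the third and Ctsl from the seventh to the fifth. There Ctsd and Ctss, Ctsz and Ctsa, and Ctsh and Ctsc overlapped in range, and the other neighbours did not.

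Promoter sequence was available in RefSeq for 8 of the 10 genes (GRCm38.p6, 250 bases before each start). The letters CACGTG are the core of the element through which Tfeb and related factors drive lysosomal genes. They occurred in 5 of the 10 windows of these genes, 1 window each of Ctsa, Ctsd, Ctsf, Ctsl and Lgmn. Of all 32851 promoter windows of that length, 6.02% held them. Ctsa and Lgmn each had another window without this string. This string reads the same on both strands. The longer GTCACGTG, which contains it, was found on either strand in 3 of the 10 windows (Ctsa, Ctsd and Lgmn) and in 1.85% of all windows. The windows of the most abundant gene, Ctsd, and of 3 genes that differed by genotype are shown on the gene's strand, with bases of annotated exons left out and the matched letters in capitals. Capitals mark CACGTG in Lgmn, Ctsf and Ctsd, and in Ctsc the reverse complement of GAGGAAGT, a binding sequence of the myeloid factor PU.1 found in 2.44% of all windows. The Lgmn window shown, chr12:102439093-102439342 on the minus strand, precedes the start that lies further along the gene and touches no annotated exon. It lies inside the annotated gene. The Lgmn window that spans the annotated start of the gene, chr12:102439729-102439978, is not shown and held no match. The other windows shown are chr19:4854915-4855129 on the plus strand for Ctsf, chr7:142388039-142388077 on the minus strand for Ctsd and chr7:88277835-88278084 on the plus strand for Ctsc. A match is a description of the letters and not evidence of binding.
Lgmn: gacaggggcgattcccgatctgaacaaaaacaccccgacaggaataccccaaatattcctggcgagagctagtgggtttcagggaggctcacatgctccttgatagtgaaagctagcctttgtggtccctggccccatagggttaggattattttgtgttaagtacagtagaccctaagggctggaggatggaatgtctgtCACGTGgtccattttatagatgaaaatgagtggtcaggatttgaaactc
Ctsf: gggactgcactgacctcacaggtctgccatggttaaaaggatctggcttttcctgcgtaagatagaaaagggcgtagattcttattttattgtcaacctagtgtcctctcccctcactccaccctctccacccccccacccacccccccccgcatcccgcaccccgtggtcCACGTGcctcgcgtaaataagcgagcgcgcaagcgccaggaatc
Ctsd: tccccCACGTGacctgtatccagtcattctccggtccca
Ctsc: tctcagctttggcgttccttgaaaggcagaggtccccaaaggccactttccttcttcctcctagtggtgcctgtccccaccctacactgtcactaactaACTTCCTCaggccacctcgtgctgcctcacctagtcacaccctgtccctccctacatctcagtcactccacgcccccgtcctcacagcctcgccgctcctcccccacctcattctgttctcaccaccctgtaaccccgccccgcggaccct

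The first comparison asks how the knockout of ApoE alters these genes in uninjected microglia. Among the 10 genes 4 rose in the knockout, Lgmn, Ctsf, Ctsh and Ctsc, by 1.33-fold to 1.94-fold, and 0 fell by limma's test (Benjamini-Hochberg adjusted p under 0.05 over 10401 genes). Of all genes tested, 5.14% rose and 19.8% fell. At an unadjusted p under 0.05 by limma 5 of the 10 genes were higher, beside 8.24% of all genes, and 2 were lower (Ctsd and Ctsz), beside 28.2% of all genes. By adjusted p edgeR called 4 of the 10 genes higher and 0 lower, beside 499 and 1159 of all genes. DESeq2 called 5 higher, Ctsl among them, and 1 lower, Ctsd, beside 647 and 1617 of all genes. By limma without wild-type library 8, 6 rose (Ctsl and Ctss joined the 4) and 4 fell (Ctsd, Ctsz, Ctsa and Ctsb), beside 7.64% and 23.0% of all genes. Among genes with a mean of at least 100, the level class of all 10, these shares were 12.6% and 14.8% with all libraries and 18.6% and 21.1% without library 8. The median log2 difference of the 10 genes was 0.34, against -0.45 over all genes tested and -0.06 over genes with a mean of at least 100.

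**Figure D1:**
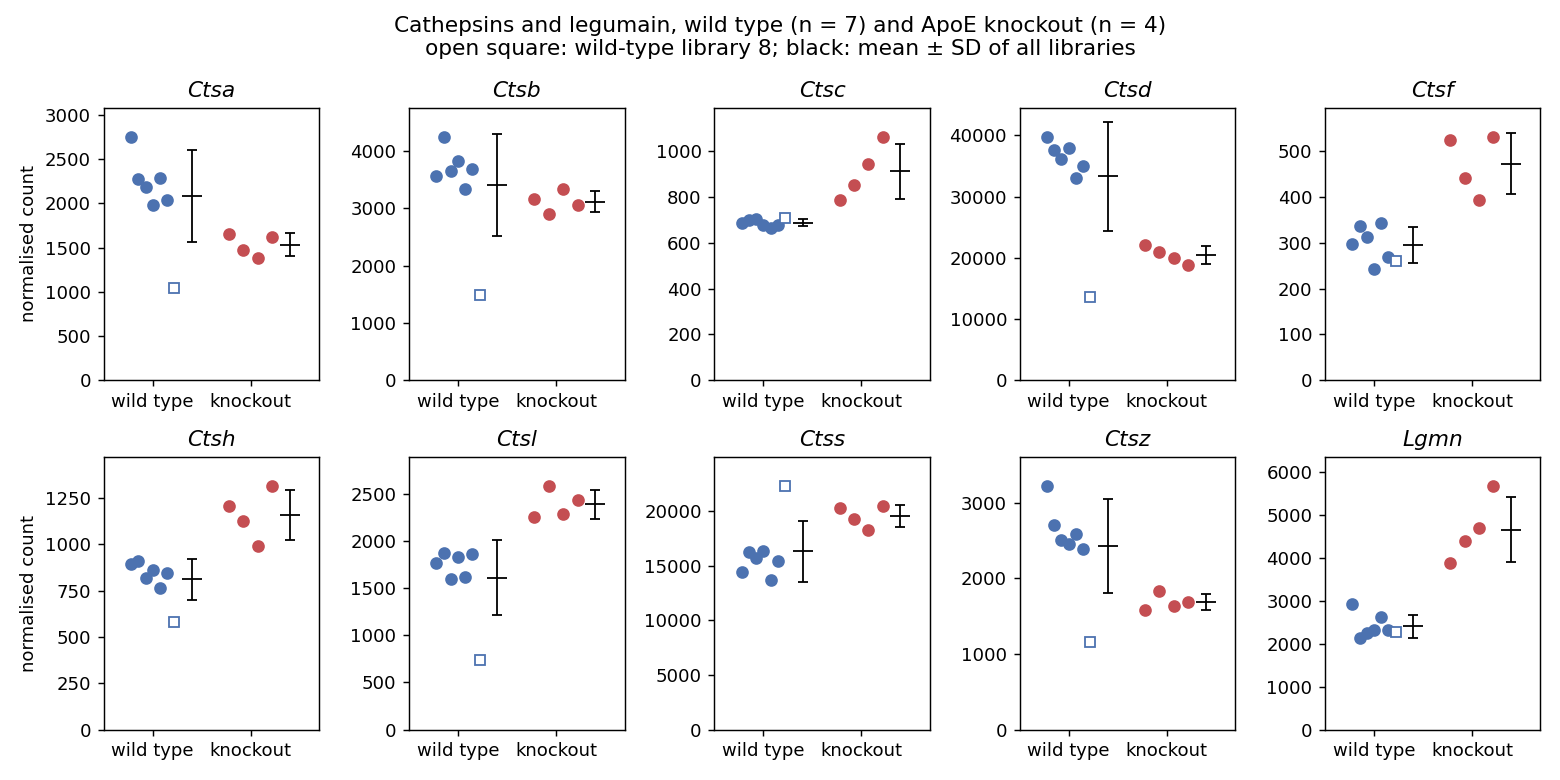
Normalised count of each of the 10 genes (y axes, linear from 0) in every wild-type (blue) and ApoE knockout (red) library, with the mean ± SD in black. Lgmn, Ctsf, Ctsh, Ctsl and Ctsc lie above all wild-type libraries in all 4 knockout libraries, while wild-type library 8 (open square) is the lowest wild-type library for Ctsa, Ctsb, Ctsd, Ctsh, Ctsl and Ctsz and the highest for Ctss and Ctsc.

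Lgmn, on the minus strand of chromosome 12 (102394084 to 102439813, GRCm38, GENCODE M21), had the largest rise of the set. Its level ran from 2146 to 2919.5 in wild type, with a median of 2320.1, and was 3874, 4388, 4712 and 5676 in knockout libraries 1 to 4. All knockout libraries lay above all wild-type libraries, library 8 included, which at 2278 was close to the wild-type median. The mean rose from 2409 ± 268 (SD, n = 7) to 4662 ± 758 (n = 4), a 1.94-fold rise (log2 difference 0.95, SE 0.13, adjusted p = 0.000131 by limma). Over 22 alternative settings the difference stayed between 0.46 and 1.03. Its lowest value came from scaling to the 12 microglial markers, where the adjusted p was 0.0571 by limma.

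Ctsf encodes a cysteine endopeptidase that can process the invariant chain in macrophages and was the least abundant of the 10 genes. Its wild-type levels ran from 243 to 343 with a median of 299, and the knockout libraries stood at 524, 441, 395 and 532, all above the wild-type range. The mean rose 1.60-fold from 295 ± 38.9 to 473 ± 66.4 (log2 difference 0.68, SE 0.15, adjusted p = 0.00506 by limma). Ctsl, an endopeptidase of broad specificity, also showed no overlap: wild-type levels ran from 735 in library 8 to 1876 with a median of 1766, and the knockout libraries stood at 2251, 2578, 2285 and 2429. The knockout mean of Ctsl was 1.48 times the wild-type mean, but the test just missed the threshold (log2 difference 0.62, SE 0.22, adjusted p = 0.0526 by limma). With all libraries Ctsl was called higher by DESeq2 and by limma with a pseudocount of 10. Library 8 widened the wild-type spread, and without it Ctsl rose by 0.44 (SE 0.07, adjusted p = 0.000489 by limma).

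Ctss, the cysteine protease of the invariant chain, showed the opposite placement of library 8, which was its highest library of either group in level. In reads library 8 was the lowest wild-type library for Ctss (12328). Wild-type levels ran from 13723 to 16305 in libraries 1 to 7 and reached 22257 in library 8, and the knockout libraries stood at 20254, 19245, 18211 and 20415. With library 8 the groups overlapped and the difference of 0.28 (SE 0.16) did not pass (adjusted p = 0.225 by limma). Without it the groups did not overlap and Ctss rose 1.28-fold (log2 difference 0.35, adjusted p = 0.00169 by limma). Ctsb, an endopeptidase that also removes dipeptides from the carboxyl end, had the smallest difference of the set. Its wild-type levels ran from 3335 to 4251 in libraries 1 to 7 and were 1488 in library 8, and the knockout libraries stood at 3163, 2903, 3342 and 3058. The ranges of Ctsb overlapped with and without library 8. The difference was -0.07 (SE 0.23, adjusted p = 0.857 by limma) with all libraries and a fall of 0.25 on the log2 scale without library 8 (adjusted p = 0.0206 by limma).

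The exopeptidases Ctsc and Ctsh rose. Ctsc, or dipeptidyl peptidase I, which removes dipeptides from the amino end and activates serine proteases of immune cell granules, was the most even gene among wild-type libraries, from 662 to 708 with a median of 687. Its knockout levels were 788, 853, 941 and 1062, all higher. The mean rose 1.33-fold from 688 ± 16.4 to 911 ± 119 (log2 difference 0.40, SE 0.12, adjusted p = 0.0214 by limma). The Ctsc call was lost without knockout library 3 (adjusted p = 0.0535 by limma), without knockout library 4 (0.0671), with quantile scaling (0.072), with microglial marker scaling, where the difference was -0.09 (0.655), and among libraries 1 to 4 with the replicate number as a block (0.0615, against 0.0276 without the block). Ctsh, an aminopeptidase, ran from 581 in library 8 to 911 in wild type with a median of 847, and stood at 1210.1, 1124, 995 and 1315 in the knockout. It rose 1.43-fold (log2 difference 0.52, SE 0.14, adjusted p = 0.0153 by limma), and the groups did not overlap.

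Ctsz and Ctsa were lower in the knockout than in wild-type libraries 1 to 7 and higher than in library 8. Ctsz, a carboxypeptidase, ran from 2384 to 3217 in wild-type libraries 1 to 7 and was 1164 in library 8, while the knockout libraries stood at 1583, 1836, 1639.8 and 1682. The difference was -0.48 (SE 0.21, adjusted p = 0.123 by limma) with all libraries, and without library 8 Ctsz fell by 0.64 on the log2 scale (adjusted p = 0.000107 by limma). Ctsa, a serine carboxypeptidase that shields beta-galactosidase and neuraminidase 1 in a complex, ran from 1984 to 2755 in wild-type libraries 1 to 7 and was 1045 in library 8. Its knockout levels were 1657, 1473, 1385 and 1623. The difference of Ctsa was -0.39 (SE 0.21, adjusted p = 0.184 by limma), and a fall of 0.55 on the log2 scale without library 8 (adjusted p = 0.000734 by limma).

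Ctsd, on the minus strand of chromosome 7 (142375911 to 142388038), showed the widest gap in tags of the set. Its wild-type levels ran from 33013 to 39772 in libraries 1 to 7, with 13571 in library 8, and were 22171, 20890.0, 19894 and 18797 in the knockout. The knockout libraries lay below wild-type libraries 1 to 7 and above library 8. With all libraries the difference was -0.64 (SE 0.27, adjusted p = 0.0992 by limma), and without library 8 Ctsd fell 1.79-fold, from 36574 ± 2373 (n = 6) to 20438 ± 1437 (n = 4; adjusted p = 2.31e-06 by limma). DESeq2 on the recovered reads with all libraries also called Ctsd lower, whereas quantile scaling with all libraries left a difference of -0.04 (adjusted p = 0.908 by limma). Over all libraries, 5 of the 10 genes lay higher without overlap of the groups (3.67% of all genes) and 0 lower (10.6%). Without library 8 the counts were 6 (5.89%) and 3, which were Ctsd, Ctsz and Ctsa (18.1%).

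**Figure D2:**
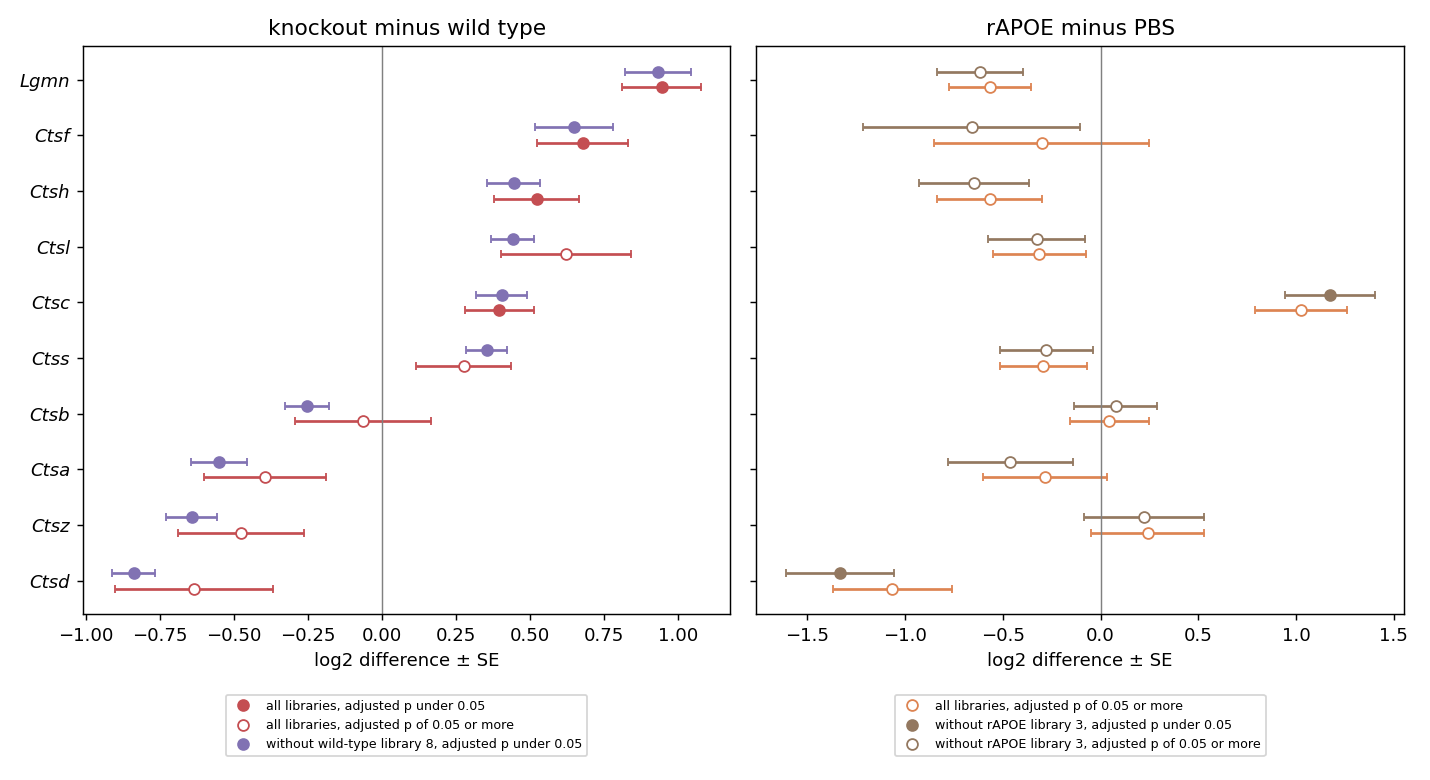
Log2 difference ± SE of each gene (x axis) by limma for knockout minus wild type (left) and rAPOE minus PBS (right), with filled points at an adjusted p under 0.05 and a second point for the fit without 1 library. Without wild-type library 8 the 10 genotype differences run from -0.84 for Ctsd to 0.93 for Lgmn and all are called, whereas scaling to microglial markers turns Ctsc to -0.09 and Ctss to -0.21. In the right panel Ctsc at 1.03 and Ctsd at -1.07 lie farthest from 0.

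The genes moved apart from each other, so the makeup of their summed tags differed between wild-type libraries 1 to 7 and the knockout. Protein and enzyme activity were not measured. Ctsd took 54.2% to 56.6% of the summed counts of the 10 genes in wild-type libraries 1 to 7, 30.8% in library 8 and 33.2% to 38.6% in the knockout. Ctss took 20.5% to 23.9% in libraries 1 to 7, 50.5% in library 8 and 33.8% to 36.1% in the knockout. Lgmn took 3.11% to 4.30% in libraries 1 to 7, 5.17% in library 8 and 6.74% to 10.03% in the knockout. Such shares within a library do not change when a library is scaled by a single factor. The ratio of Lgmn to Ctsd was 0.0572 to 0.0794 in libraries 1 to 7, 0.168 in library 8 and 0.175 to 0.302 in the knockout. The ratio of Ctss to Ctsd was 0.362 to 0.441, 1.64 and 0.914 to 1.09 in the same order. The ratio of Ctsc to Lgmn was 0.235 to 0.326 over all wild-type libraries and 0.187 to 0.204 in the knockout. The ratio of Ctsl to Ctsb was 0.438 to 0.503 over all wild-type libraries and 0.684 to 0.888 in the knockout. That of Cst3 to Ctss overlapped between the groups. Library 8 lay near or beyond the knockout range for both ratios to Ctsd. For Ctsc to Lgmn and for Ctsl to Ctsb it lay within the range of the other wild-type libraries. The cause was not tested.

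**Figure D3:**
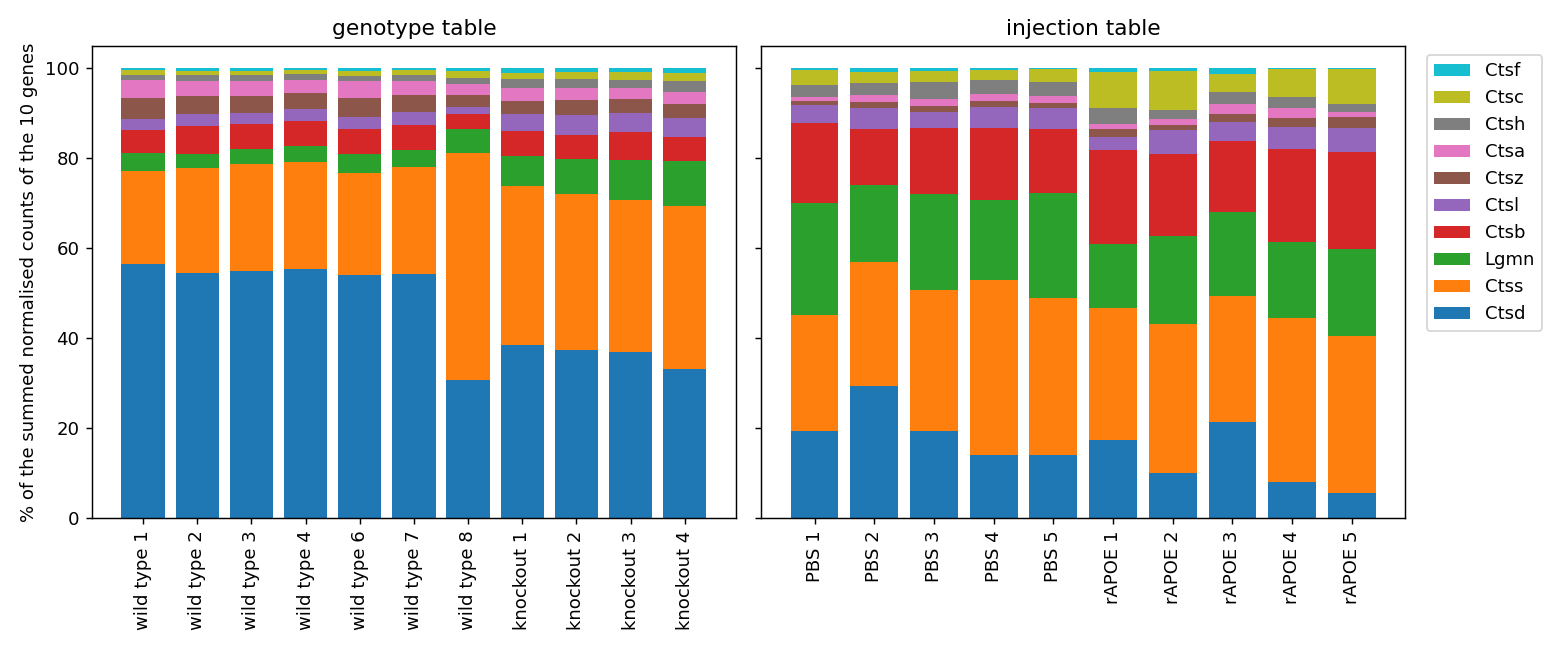
Share (y axis, %) of each gene in the summed normalised counts of the 10 genes, as stacked bars, for every library of the genotype table (left) and the injection table (right). Ctsd fills 54.2% to 56.6% of the bar in wild-type libraries 1 to 7, 30.8% in wild-type library 8 and 33.2% to 38.6% in the knockout, and Ctsc fills 2.06% to 3.44% after PBS and 4.02% to 8.65% after rAPOE.

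Microglial markers also differed between the genotype groups. Of 12 markers 7 rose and 0 fell in the knockout, with a median of 0.47, and scaling the libraries to the markers moved the median of all genes from -0.45 to -0.94. On that scale 0 of the 10 genes were called higher and 3 lower, Ctsa (-0.88), Ctsd (-1.13) and Ctsz (-0.97), beside 0.971% and 36.5% of all genes, and 2.59% of all called genes were higher, against 20.6% as deposited. Ctsf, Ctsh and Ctsl kept small positive differences of 0.19, 0.03 and 0.13 on the marker scale, none of which passed. With quantile scaling 47.3% of called genes were higher, the median of all genes was 0.09 and 4 of the 10 genes were called higher (Ctsf, Ctsh, Ctss and Lgmn) and 0 lower, beside 8.85% and 9.87% of all genes.

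Of 6 cystatin and serpin genes tested, 0 rose and 3 fell: Cst7, or cystatin F, an inhibitor of Ctsc and other cysteine cathepsins that is sorted to lysosomes, Serpinb1a and Serpinb6a. The Cst7 call held under all 22 alternatives, but that of Serpinb1a was lost under 10 of 21 and that of Serpinb6a under 12 of 22. Leaving out 1 library ended the call of Serpinb1a in 8 of 11 cases (adjusted p up to 0.0693 by limma) and that of Serpinb6a in 9 of 11 (up to 0.0987). TMM scaling and edgeR called 2 inhibitors lower and quantile scaling 1, and edgeR and DESeq2 called 1 higher. Cst7 stood at 1232 to 1672 in wild-type libraries 1 to 7, at 7.22 in library 8 and at 35.2, 68.1, 26.8 and 27.0 in the knockout, a mean 32.4 times lower (log2 difference -4.24, SE 1.17, adjusted p = 0.0167 by limma). Cst3, or cystatin C, a secreted inhibitor of cysteine cathepsins and by far the most abundant inhibitor, ran from 39762 to 44732 in wild type and stood at 53426, 58470.0, 53582 and 51022 in the knockout. The Cst3 groups did not overlap, library 8 included, but the difference of 0.35 (SE 0.17) did not pass (adjusted p = 0.160 by limma), and it turned to -0.14 with microglial marker scaling. Without library 8 it passed at 0.36 (adjusted p = 0.00124 by limma).

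Of 13 sorting genes, 2 rose and 1 fell. Scarb2, the receptor that carries glucocerebrosidase to lysosomes, rose 1.42-fold (adjusted p = 0.0286 by limma), and Gga3, an adaptor for mannose 6-phosphate receptors, rose 2.07-fold (adjusted p = 0.0335 by limma). Leaving out 1 library ended the Scarb2 call in 4 of 11 cases (adjusted p up to 0.085 by limma, without knockout library 1) and the Gga3 call in 6 of 11 (up to 0.0993, without knockout library 4), and microglial marker scaling ended both. Igf2r, the cation-independent mannose 6-phosphate receptor, fell: it stood at 27.1 to 82.8 in wild type and at 0 in all 4 knockout libraries, where 3 reads would be a level of 1.3 to 1.7 (adjusted p = 5.04e-06 by limma). M6pr, the cation-dependent receptor, had a difference of 0.56 (adjusted p = 0.0537 by limma) and, without library 8, rose by 0.66 (adjusted p = 0.00941 by limma), which made 3 sorting genes higher.

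Of 6 other lysosomal peptidases, Prcp rose 2.15-fold (adjusted p = 0.0104 by limma), and Dpp7, Cpq and Napsa fell. The Dpp7 call was lost in 8 of 11 cases when 1 library was left out (adjusted p up to 0.103 by limma) and the Cpq call in 4 of 11 (up to 0.0605), and edgeR and quantile scaling each called 1 of these peptidases lower. Without library 8 there were 4 lower, Scpep1 being the fourth (named after its values were seen). Napsa, an aspartic protease related to Ctsd, ran from 19.4 to 49.5 in wild-type libraries 1 to 7 and was at 0 in library 8 and in all 4 knockout libraries. Among 8 partners and substrates, Ifi30, a thiol reductase of antigen processing, rose 1.75-fold (adjusted p = 0.00326 by limma), from 126 to 216 in wild type to 302 to 341 in the knockout. Glb1 and Galns fell 2.15-fold and 2.46-fold (adjusted p = 0.0143 and 0.0168 by limma), and Glb1 encodes the beta-galactosidase that Ctsa shields. The Galns call was lost with quantile scaling (adjusted p = 0.0535 by limma) and among libraries 1 to 4 with and without the block. Without library 8 these partners had 2 higher and 3 lower, joined by Tlr7 (0.79, adjusted p = 0.00205 by limma) and by Cd74, the invariant chain (-2.45, adjusted p = 0.000236 by limma, named after its values were seen). Among the 3 factors of the Tfeb family tested, Tfe3 rose 1.71-fold from 260.3 ± 34.1 to 446 ± 49.6 (adjusted p = 0.00176 by limma), without overlap. Tfeb had a difference of -0.35 (adjusted p = 0.358 by limma) and Mitf of -0.66 (adjusted p = 0.0558 by limma). Without library 8 Mitf fell by 0.66 on the log2 scale (adjusted p = 0.0482 by limma), and without knockout library 4 by 0.90 (adjusted p = 0.00928 by limma). Microglial marker scaling ended the calls of Prcp, Ifi30 and Tfe3, and quantile scaling that of Napsa. Of the other cathepsins only Ctso was high enough to test, and its difference of 0.63 did not pass (adjusted p = 0.164 by limma).

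The genes whose pattern over the 11 libraries was most like that of the 4 that rose were found as the smallest mean absolute difference in centred log2 level, among 5714 genes with a mean of at least 50. For Ctsc these were Itga6 (0.0552), Rgs10 (0.102) and Cdc42 (0.103). For Ctsf they were Lamp2 (0.101), Ly6e (0.105) and Myd88 (0.114), and for Ctsh Ifnar2 (0.0823), Ly6e (0.0934) and Lamp2 (0.106), so 2 of the 3 were common to both. Lgmn was nearest to Rassf2 (0.122), Serinc3 (0.13) and Unc93b1 (0.132). Lamp2 encodes a main membrane protein of the lysosome, and Unc93b1 the carrier of the endosomal Toll-like receptors that cathepsins and legumain cut.

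Of the 10 genes, 3 share their 3′ end with a named gene on the other strand, and the strand setting of the counting is not given in the sources used here. These are Ctsa with Pltp, Ctsb with Fdft1 and Ctsz with Nelfcd. In the genotype table Pltp came to at most 10.6% of the Ctsa level of its library, Fdft1 to 0.992% of Ctsb and Nelfcd to 5.87% of Ctsz. Ctsl overlaps an antisense transcript and Ctsd a readthrough gene on its own strand at the 3′ end, so tags of these loci are uncertain in the same way.

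The second comparison asks what rAPOE does, 16 h after injection, to microglia of a brain that lacks ApoE. None of the 10 genes passed by limma (0 higher and 0 lower over 7066 genes tested, where 0.368% of genes were higher and 0.113% lower). At an unadjusted p under 0.05 by limma, 1 gene was higher (Ctsc) and 3 were lower (Ctsd, Ctsh and Lgmn), beside 5.22% and 5.99% of all genes. By adjusted p edgeR called 0 of the 10 genes, beside 23 of all genes higher and 1 lower. DESeq2 called 1 higher, Ctsc, and 0 lower, beside 66 and 48 of all genes. The median difference of the 10 genes was -0.30, against -0.01 over all genes tested. The order of the mean levels after PBS was Ctss, Lgmn, Ctsd, Ctsb, Ctsl, Ctsh, Ctsc, Ctsa, Ctsz and Ctsf, and ranges did not overlap from Ctsb to Ctsl, from Ctsc to Ctsa and from Ctsz to Ctsf. After rAPOE it was Ctss, Ctsb, Lgmn, Ctsd, Ctsc, Ctsl, Ctsh, Ctsz, Ctsa and Ctsf, and Ctss to Ctsb was the 1 step without overlap.

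Ctsc showed the clearest separation. It stood at 426, 291, 334, 311 and 448 in PBS libraries 1 to 5 and at 852, 859.5, 484, 670.5 and 856 in rAPOE libraries 1 to 5. All rAPOE libraries lay above all PBS libraries, as for 1.59% of genes tested (1.54% lay lower without overlap, and 0 of the 10 genes), and library 3 was the lowest of the rAPOE group. The mean was 2.06 times higher, 744 ± 166 (n = 5) against 362 ± 70.6 (n = 5), with a log2 difference of 1.03 (SE 0.24, adjusted p = 0.0559 by limma). Over 21 alternative settings the difference ran from 0.95 to 1.84 and the adjusted p from 0.00154 to 0.204, and 7 of them passed the threshold. Without rAPOE library 3 it was 1.17 (adjusted p = 0.0137 by limma), and without both libraries numbered 5 it was 1.05 (adjusted p = 0.204 by limma), where 0.142% of genes were called higher and 0.0142% lower.

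**Figure D4:**
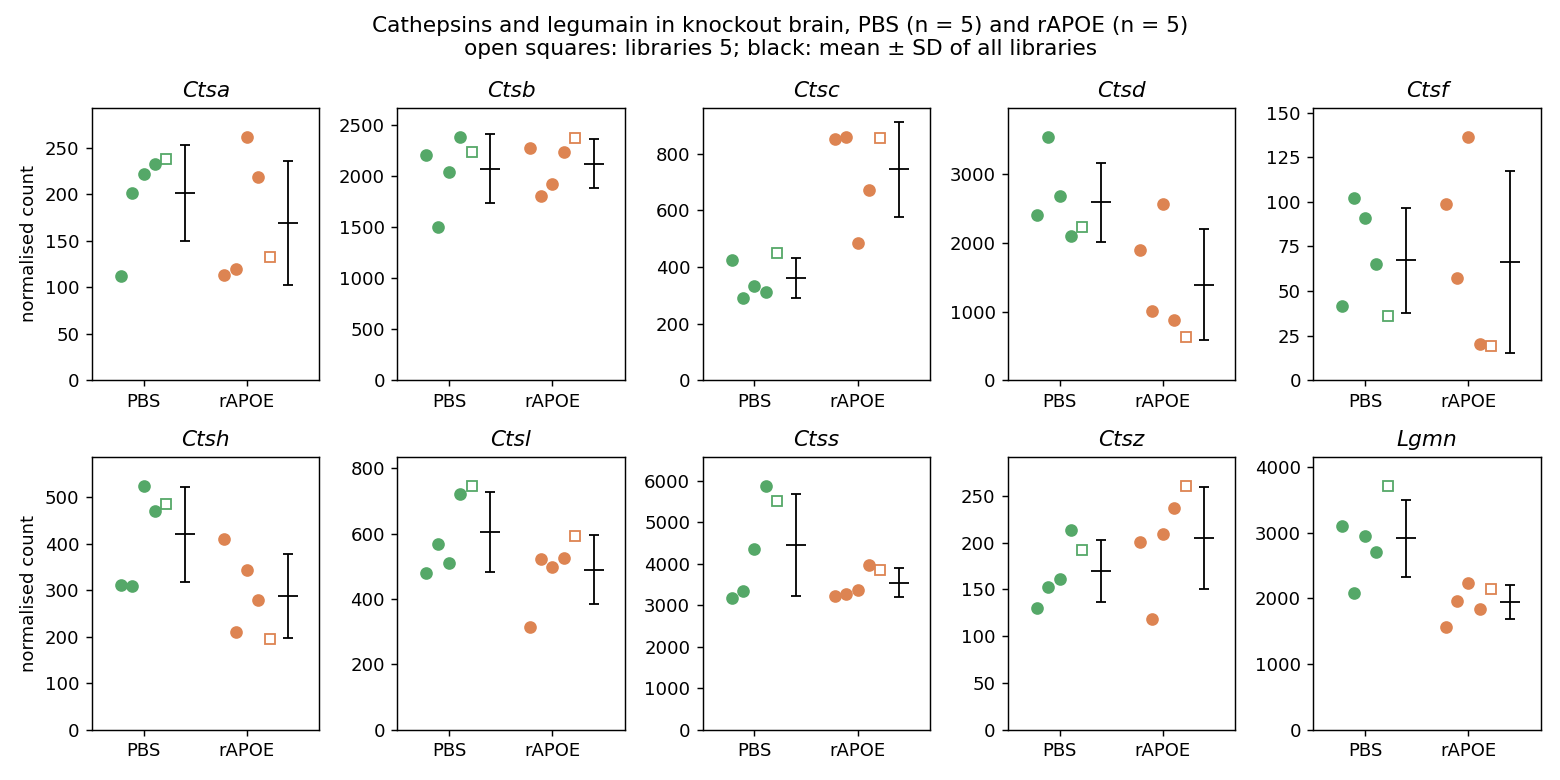
Normalised count of each of the 10 genes (y axes, linear from 0) in every PBS (green) and rAPOE (orange) library of the injection table, with the mean ± SD in black and the libraries numbered 5 as open squares. Ctsc is the gene whose groups do not overlap, from 291 to 448 after PBS and from 484 to 859.5 after rAPOE, and rAPOE library 3 is the highest of its group for Ctsa, Ctsd and Ctsf.

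Ctsd lay at 2408, 3545, 2677, 2101 and 2237 in PBS libraries 1 to 5 and at 1894, 1007, 2564, 873 and 624 in rAPOE libraries 1 to 5. Of the rAPOE libraries, 4 lay below all PBS libraries, and library 3 lay inside the PBS range. The mean was 1.86 times lower, 1392 ± 811 against 2593 ± 574, a difference of -1.07 (SE 0.30) that did not pass (adjusted p = 0.149 by limma). Without rAPOE library 3, Ctsd passed at -1.33 (adjusted p = 0.0222 by limma), beside 0.539% of genes lower and 0.510% higher, with Ctsc the other of the 10 genes that passed.

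Lgmn stood at 3101, 2082, 2952, 2712 and 3706 after PBS and at 1569.7, 1957, 2232, 1841 and 2138 after rAPOE. The groups overlapped through PBS library 2, and the mean was 1.49 times lower after rAPOE (log2 difference -0.57, SE 0.21, adjusted p = 0.302 by limma). The ratio of Ctsc to Lgmn was 0.113 to 0.140 after PBS and 0.217 to 0.543 after rAPOE, without overlap. A single factor for each library cannot alter such a ratio. The other ratios examined, Lgmn to Ctsd, Ctss to Ctsd, Ctsl to Ctsb and Cst3 to Ctss, overlapped between the groups.

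The other endopeptidases differed by less than their spread. Ctss stood at 3175, 3344, 4364, 5869 and 5513 after PBS and at 3214, 3274, 3378, 3974 and 3854 after rAPOE. It was the most abundant of the 10 genes in both groups, and its rAPOE libraries lay within the PBS range (log2 difference -0.29, adjusted p = 0.661 by limma). Libraries 4 and 5 were its highest in both groups. Ctsb at 1506 to 2386 after PBS and 1809.9 to 2372 after rAPOE had a difference of 0.04 (adjusted p = 0.967 by limma), and Ctsl at 479.9 to 745 and 313 to 591 had one of -0.31 (adjusted p = 0.661 by limma). Ctsf rested on few tags, 25 to 136 reads in a library, and ran from 36.0 to 102 after PBS and from 19.4 to 136 after rAPOE (log2 difference -0.30, SE 0.55, adjusted p = 0.880 by limma). A change of Ctsf was not detectable beyond this spread.

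Of the exopeptidases, Ctsh ran from 309.7 to 523 after PBS and from 195 to 410.1 after rAPOE (log2 difference -0.57, adjusted p = 0.437 by limma). Ctsz ran from 129.9 to 214 and from 118 to 260.4 (log2 difference 0.24, adjusted p = 0.806 by limma). The serine carboxypeptidase Ctsa ran from 113 to 238 and from 113 to 262 (log2 difference -0.28, adjusted p = 0.790 by limma). All 3 overlapped between the groups.

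The summed level of the 12 microglial markers was 22791 to 26794 after PBS and 11383 to 24053 after rAPOE. In the rAPOE group library 3 was the highest and libraries 4 and 5 the lowest. By limma 4 of the markers fell (P2ry12, Selplg, Gpr34 and Siglech) and 0 rose, beside 0.113% and 0.368% of all genes. None of these 4 calls held without both libraries numbered 5 (median -0.53, against -0.71 with them). With all libraries edgeR called 1 marker lower, DESeq2 and TMM scaling 4 each and quantile scaling 5. Without rAPOE library 3 the fit called 4 lower. Ranked by the marker sum, by Ctsd or by Ctsf, the 5 rAPOE libraries fell in the same order. None of the other genes of the set followed that order. After PBS neither Ctsd nor Ctsf followed the order of the marker sum. The part of the markers in the results was not tested beyond the scaling that follows. Scaled to these markers, the median of all genes moved from -0.01 to 0.80, Ctsc rose by 1.84 (adjusted p = 0.00188 by limma), Ctsb by 0.86 (adjusted p = 0.0499 by limma), beside 7.09% of all genes higher and 0.0142% lower, and Ctsd stood at -0.25 (adjusted p = 0.574 by limma). On that scale Lgmn, Ctsh, Ctsl, Ctss, Ctsa and Ctsf turned to positive differences of 0.25 to 0.53, none of which passed, and 99.8% of called genes were higher, against 76.5% as deposited. Ctsc was thus higher after rAPOE on each scale tried, in size if not in call, and Ctsd lower.

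None of the related genes passed in the injection table, over 5 inhibitors, 12 sorting genes, 5 other peptidases, 7 partners, 3 transcription factors and 1 other cathepsin tested by limma. At an unadjusted p under 0.05 by limma, 1 of these 33 genes was higher (M6pr) and 6 were lower, beside 5.22% and 5.99% of all genes. By adjusted p edgeR called 0. DESeq2 gave an adjusted p for 22 of them and called 1 lower, Cst3. With microglial marker scaling 1 sorting gene and 1 inhibitor were called higher and 0 related genes lower, beside 7.09% and 0.0142% of all genes. Cst3 stood at 16163, 17023, 17066, 17301 and 17718 after PBS and at 12233, 12182, 12127, 9320 and 8882 after rAPOE. Its groups did not overlap, but the difference of -0.65 (SE 0.22) did not pass (adjusted p = 0.251 by limma) and turned to 0.16 with microglial marker scaling. Tpp1, a tripeptidyl peptidase of the lysosome, likewise did not overlap, at 212 to 282 after PBS and 106 to 200 after rAPOE (log2 difference -0.67, adjusted p = 0.357 by limma). M6pr had a difference of 0.71 (adjusted p = 0.357 by limma), Sort1, another sorting receptor, of -1.19 (adjusted p = 0.290 by limma) and Mitf of -1.54 (adjusted p = 0.282 by limma). Cst7, the inhibitor that was low in the knockout females, ranged from 2.53 to 66.2 after PBS and from 0 to 41.2 after rAPOE (log2 difference -1.24, adjusted p = 0.752 by limma).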

How the data were processed

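Per the labels' protocols, libraries of total microglial RNA were prepared with the QuantSeq 3′ FWD kit, which tags transcripts near the 3′ end, and sequenced on a MiniSeq. The genome build GRCm38.p3 and the tools R 3.2.3, Picard 1.8.4, DESeq2 and HTSeq are listed without roles, per the submitters' processing notes. Neither aligner nor annotation is given in the sources used here. Normalised counts, which the authors deposited, are a signal for each gene that equals its reads over a library-wide factor. In each library 100% of values were whole multiples of a step within 0.01 of a read, so reads could be recovered for the count tests. Reads carry no molecular identifiers, so their number limits precision for counting error only.

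Dropping 22 date-like names (0.0966% of values) and 120 genes at 0 in all libraries left 18079 genes in the genotype table. The injection table has 13297. Log2(normalised count + 1) was tested with limma 3.58.1 in R 4.3.3 (lmFit, eBayes with an intensity trend) over genes with a table mean of at least 10, which all 10 genes passed in both tables, with Benjamini-Hochberg adjustment over all genes tested and a threshold of 0.05. Differences are on that scale, which understates changes of low genes, and folds are ratios of mean normalised counts. Alternatives were pseudocounts of 0.5 and 10, other filters, TMM, quantile and microglial marker scaling, edgeR 4.0.16 (quasi-likelihood) and DESeq2 1.42.0 on recovered reads, each library left out in turn, and the replicate number as a block. The limma script was tested on simulated data. Replicate counts differed by more than sampling noise in each group. The lowest chi-square per gene between libraries of a group was 4.01 in wild type, 34.6 in the knockout, 12.2 after PBS and 9.2 after rAPOE. Motifs were searched on both strands of RefSeq promoters, and gene positions come from GENCODE M21, in which 99.3% and 99.9% of the symbols of the tables were found.

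All 10 genes are named in both comparisons. Of each related list, up to 4 genes with the lowest adjusted p were eligible to be named. The genes and lists were chosen with earlier results of these data known.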

Additional observations from a re-analysis of the deposited data

Results flagged for a closer look

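Within each group of 4 to 7 libraries, the 10 genes were checked for a library far from the others by Dixon's criterion, 40 sets in all, of which chance would pick about 1 in 20. In 5 sets there was such a library, and each time it was wild-type library 8. There Ctsd at 13571, Ctsb at 1487.7, Ctsl at 735 and Ctsz at 1164.5 lay below the other wild-type libraries, and Ctss at 22257 lay above them. The reads of this library, 2016972, were the fewest of the wild-type group, 4.67% of them came from mitochondrial ribosomal RNA against 1.36% to 1.59% in the others, and its Cst7 level of 7.22 was far below theirs. No injected library was picked out for any of the 10 genes.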

How the results depend on the processing

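In the genotype comparison 535 genes were called higher and 2061 lower. The lower count became 3191 with no filter, 801 with a mean of at least 50 and 1159 with edgeR, quantile scaling gave 920 higher and 1027 lower, and microglial marker scaling gave 101 and 3797, with 0 of the 10 genes higher and 3 lower. DESeq2 called 5 of the 10 higher and 1 lower. Leaving out 1 library gave 0 to 4 of the 10 lower, the 4 without wild-type library 8. Marker scaling turned Ctsc to -0.093, Ctss to -0.21 and Cst3 to -0.14.

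In the injection comparison 26 genes were higher and 8 lower. The counts were 55 and 23 with a pseudocount of 10, 45 and 22 with quantile scaling, 501 and 1 with marker scaling and 66 and 48 with DESeq2. With a mean of at least 50 there were 16 lower, with edgeR 1, and without both libraries numbered 5 there were 10 higher and 1 lower. Leaving out 1 library gave 13 to 36 higher and 2 to 38 lower genes, and 0 to 1 of the 10 genes in each direction, the most without rAPOE library 3. Of the 10, 1 was higher and 1 lower with a pseudocount of 10 or quantile scaling, 1 higher with a mean of at least 50 or DESeq2, and 2 higher with marker scaling. Marker scaling turned Ctsa to 0.53, Ctsf to 0.51, Ctsh to 0.25, Ctsl to 0.50, Ctss to 0.52, Lgmn to 0.25, Cst3 to 0.16, Tpp1 to 0.14, Psap to 0.16, Grn to 0.54, Ifi30 to 0.51, Glb1 to 0.053 and Tfe3 to 0.69. Leaving out 1 injected library moved Ctsb from -0.067 (without PBS library 2) to 0.099, Tfeb from -0.012 and Tfe3 up to 0.034 (both also without PBS library 2; at the other end 1.55 and -0.40), Prcp from -0.12 (without rAPOE library 2) to 0.30, and Ctsf from -0.66 to 0.029 (without rAPOE library 5). The causes were not tested.

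The replicate numbers were not taken to pair the libraries, since not every pair correlated above 0.1: deviations of same-numbered libraries correlated at -0.03 to 0.04 over 4 pairs of the genotype table and at -0.01 to 0.43 over 5 of the injection table, where libraries 4 and 5 correlated best with their own number. Injected libraries 4 and 5 of both groups also stood apart in genes detected, 10025 to 11342 against 7601 to 8837 in libraries 1 to 3. Their share of mitochondrial ribosomal RNA was 10.8% to 11.8%, against 12.6% to 20.1%. The part of this split in the results was not tested beyond the block. With the replicate number as a block, 4 of the 10 genes were higher and 3 lower in the genotype comparison (libraries 1 to 4), beside 403 and 1378 of all genes. Without the block, a set added after the data were seen, 6 were higher and 4 lower, beside 528 and 1530 of all genes. In the injection comparison the block gave 1 of the 10 genes higher and 0 lower, beside 35 and 17 of all genes. The PBS and rAPOE libraries held 704225 to 1347501 reads, and genes with few tags, such as Ctsf, could be compared only coarsely.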
